A study of Mus musculus with 27 samples.

Results

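The 9 genes described here encode the invariant chains of the T cell receptor (TCR) and the first enzymes and adaptors that act below it: Cd3d, Cd3e, Cd3g, Cd247, Lck, Zap70, Lat, Lcp2 and Plcg1. They were found as the rows of the count table whose GRCm38 symbol is 1 of these names, a rule that uses no measured value, but the set itself was drawn up with earlier results of these data known. All 9 were found among the 26802 genes of the table, and all 9 passed the filter on low counts that left 10493 genes for testing. The study measured RNA by sequencing in mouse CD4+ and CD8+ T cells that lack Raptor, a defining subunit of the kinase complex mTORC1, or Rictor, its counterpart in mTORC2. T cells were isolated by magnetic negative selection from a pool of spleen and lymph node. After 48 h in culture, live cells were sorted. Resting cells were kept in IL-7, a survival cytokine, at 5 ng/ml. Stimulated cells were kept on plates coated with antibodies to CD3 and to CD28 at 10 µg/ml and, per the labels, without IL-7, so each stimulation effect below also holds the absence of IL-7.

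The wild-type (WT) groups came from mice labelled B6-wt and were 4 in number: resting and stimulated cells of each subset. The Raptor KO groups, from mice with a Cd4-cre transgene and a floxed Rptor allele (B6-Tg(Cd4-cre)1Cwi-Rptortm1.1Dmsa), were the same 4. Rictor KO cells, with the same transgene and a floxed Rictor allele (B6-Tg(Cd4-cre)1Cwi-Rictortm1.1Klg), were present only as stimulated CD8+ cells. Each of the 9 groups had 3 libraries. The Cre gene is driven by Cd4 sequences, which are active in the thymic stage that precedes both subsets, so deletion is not restricted to CD4+ cells. The WT label names neither the transgene nor a floxed allele, so an effect of Cre itself cannot be told apart from loss of the gene. The labels give no age. They also do not tell whether a group's libraries are from separate animals, so p-values here speak only of the spread among these libraries, which may be technical.

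In a T cell the αβ receptor has almost no cytoplasmic tail and signals through the CD3δ, CD3ε, CD3γ and ζ chains, encoded by Cd3d, Cd3e, Cd3g and Cd247. The kinase Lck, held at the coreceptors CD4 and CD8, phosphorylates tyrosines in these chains, and the kinase ZAP-70 (Zap70) docks there. ZAP-70 in turn phosphorylates the membrane adaptor LAT (Lat) and the cytosolic adaptor SLP-76 (Lcp2), which together recruit phospholipase Cγ1 (Plcg1), the enzyme that starts the calcium and diacylglycerol branches. All of these steps are carried out by proteins and phosphorylation, which RNA counts do not measure.

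The count tables held 8640699 to 16817347 counts per library, with a median of 11985929, of which the ribosomal precursor Rn45s took 81.1% to 88.4%. Without it, 1522199 to 2515583 counts remained, and levels are given as CPM, counts per 1000000 of these after scaling. A member had 38 to 851 counts in a library. The share of protein-coding genes in the counts other than Rn45s differed with culture, at 18.7% to 45.2% in resting and 31.8% to 63.6% in stimulated libraries. Subset labels went with the coreceptors: Cd4 measured 171 to 372 CPM in CD4+ and at most 5.49 CPM in CD8+ libraries, and Cd8a 82.8 to 403 CPM in CD8+ and at most 4.62 CPM in CD4+ libraries. Rptor was slightly lower in the Raptor KO groups, at 27.3 ± 3.65 against 34.5 ± 4.13 CPM in resting CD4+ cells, and Rictor in the Rictor KO group, at 39.1 ± 1.61 against 45.1 ± 7.19 CPM (mean ± SD, n = 3), but these counts cover the whole gene and not the deleted part alone, so they check little. For 8 B cell markers the summed level was 92.1 to 136 CPM in resting and 23.2 to 70.1 CPM in stimulated libraries, led by Ighm in every group, with at most 2 of the 8 at 0 in a group (Pax5 and Ebf1 in resting WT CD8+ cells). For 9 myeloid markers, led by Ctss, it was 28.5 to 56.1 CPM at rest and 20.8 to 68.6 CPM after stimulation. For 7 markers of NK and γδ T cells, led by Trdc, it was 11.4 to 54.3 and 4.72 to 38.0 CPM, and for 5 of erythroid and stromal cells, led by Pecam1, which T cells also express, 30.3 to 113 and 5.50 to 26.9 CPM.

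Cd3d, Cd3g and Cd3e lie within 40056 bases of chromosome 9 (GRCm38). Cd3d, at 44981786 to 44987339 on the plus strand, and Cd3g, at 44969572 to 44980431 on the minus strand, start 1354 bases apart and are read away from each other. Cd3e lies at 44998740 to 45009627 on the minus strand. The other members are single genes on separate stretches: Zap70 on chromosome 1 at 36761798 to 36782818 and Cd247 on the same chromosome at 165788681 to 165877277, Plcg1 on chromosome 2 at 160731300 to 160775760, Lck on 4 at 129548344 to 129573641, Lat on 7 at 126363824 to 126369570 and Lcp2 on 11 at 34046920 to 34092295. For Cd247, with 5329 exonic bases, the overlap with exons of other counted genes was 3213 bases, summed gene by gene. A base shared with several genes counts more than once in such a sum. For Plcg1, with 7857 exonic bases, the sum was 627. Genes that overlap them include the antisense genes Pou2f1 at Cd247 and Zhx3 at Plcg1, and the part of each in the sum was not separated. Lower sums were found for Lcp2 (282), Cd3e (135) and Lck (25). The strand setting of the counting is not given in the sources used here, so counts of these genes are uncertain, those of Cd247 the most by this overlap.

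Promoter stretches are shown for 2 pairs of genes whose levels went together across the groups: Cd3d with Cd3g, which were lower in stimulated cells, and Zap70 with Lcp2, which were higher in most of them. They are the 250 bases before a start site in the RefSeq table of build GRCm38.p6, read 5′ to 3′ in the direction of the gene. That table holds 3 start sites for Zap70 and 2 for Lck, of which only the site nearest the annotated gene start was used, and 1 for each other member. Capitals mark matches, on both strands, to GGAA (the core of ETS factor sites) and CANNTG (the E-box), of which 1 pair overlaps, in the Cd3g stretch. The stretches are chr9:44981536-44981785 (plus) for Cd3d, chr9:44980432-44980681 (minus) for Cd3g, chr1:36761548-36761797 (plus) for Zap70 and chr11:34046678-34046927 (plus) for Lcp2.
Cd3d: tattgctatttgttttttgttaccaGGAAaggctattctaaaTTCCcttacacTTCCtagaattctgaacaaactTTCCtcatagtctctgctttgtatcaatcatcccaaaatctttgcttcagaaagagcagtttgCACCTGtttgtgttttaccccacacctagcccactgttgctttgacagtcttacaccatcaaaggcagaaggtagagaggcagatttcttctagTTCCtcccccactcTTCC
Cd3g: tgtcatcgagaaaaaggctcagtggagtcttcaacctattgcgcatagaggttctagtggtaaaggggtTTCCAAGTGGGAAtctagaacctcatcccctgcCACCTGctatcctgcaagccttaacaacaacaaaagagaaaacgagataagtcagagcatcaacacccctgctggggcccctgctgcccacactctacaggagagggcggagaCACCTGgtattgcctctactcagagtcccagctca
Zap70: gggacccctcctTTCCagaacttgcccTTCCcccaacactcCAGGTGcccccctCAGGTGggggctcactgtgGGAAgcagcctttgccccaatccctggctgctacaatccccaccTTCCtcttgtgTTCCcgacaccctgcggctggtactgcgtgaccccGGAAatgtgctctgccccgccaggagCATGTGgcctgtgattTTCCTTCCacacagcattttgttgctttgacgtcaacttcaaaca
Lcp2: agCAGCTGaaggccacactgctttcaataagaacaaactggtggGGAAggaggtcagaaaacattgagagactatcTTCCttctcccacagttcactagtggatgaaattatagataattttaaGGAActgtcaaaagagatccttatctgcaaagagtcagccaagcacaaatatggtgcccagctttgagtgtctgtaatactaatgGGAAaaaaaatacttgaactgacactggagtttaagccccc
The Cd3d stretch held 6 matches to GGAA and 1 to CANNTG, and the Cd3g stretch, from the other side of the same intergenic interval, 2 and 3. The Zap70 stretch held 8 and 3, and the Lcp2 stretch 4 and 1. Over all 9 members, 8 stretches held GGAA and 8 held CANNTG, and 1 of them, that of Lck, held TGTGGT, the RUNX site. Such matches are common: of 32851 promoter stretches of this length in the table, 93.45% held GGAA, 66.22% held CANNTG and 14.05% held TGTGGT.

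Levels of different genes are given per kilobase of exon, which makes them comparable only as far as reads cover exons evenly, and that was not tested. In resting WT CD4+ cells Lck stood highest, at 70.3 ± 2.86 CPM per kilobase (mean ± SD, n = 3), followed by Lat at 63.9 ± 2.31 and Cd3d at 48.1 ± 1.56. Cd3e measured 35.3 ± 3.68 and Lcp2 32.8 ± 1.98, values that lay within each other's spread, and Zap70 and Cd247 were the lowest at 16.0 ± 2.11 and 14.0 ± 1.09 CPM per kilobase. The value for Cd247 depends most on how reads in overlapping exons were counted. Resting WT CD8+ cells kept Lck first, at 70.7 ± 1.71, within the spread of Cd3d at 69.0 ± 5.96, and Lat had rank 3 at 42.6 ± 1.63 CPM per kilobase. After stimulation Lcp2 moved up from rank 5 to rank 2 among the 9 in WT CD4+ cells, at 49.5 ± 2.68 CPM per kilobase against 50.9 ± 3.36 for Lck. In stimulated Raptor KO CD4+ cells Lcp2 ranked first, at 62.5 ± 4.96, above Lck at 45.0 ± 1.08 CPM per kilobase. Summed over the 9 genes, levels were 921 to 1156 CPM in the 12 resting libraries and 646 to 935 CPM in the 15 stimulated ones. In bulk RNA, fewer cells of a type and less RNA per cell cannot be told apart.

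**Figure D1:**
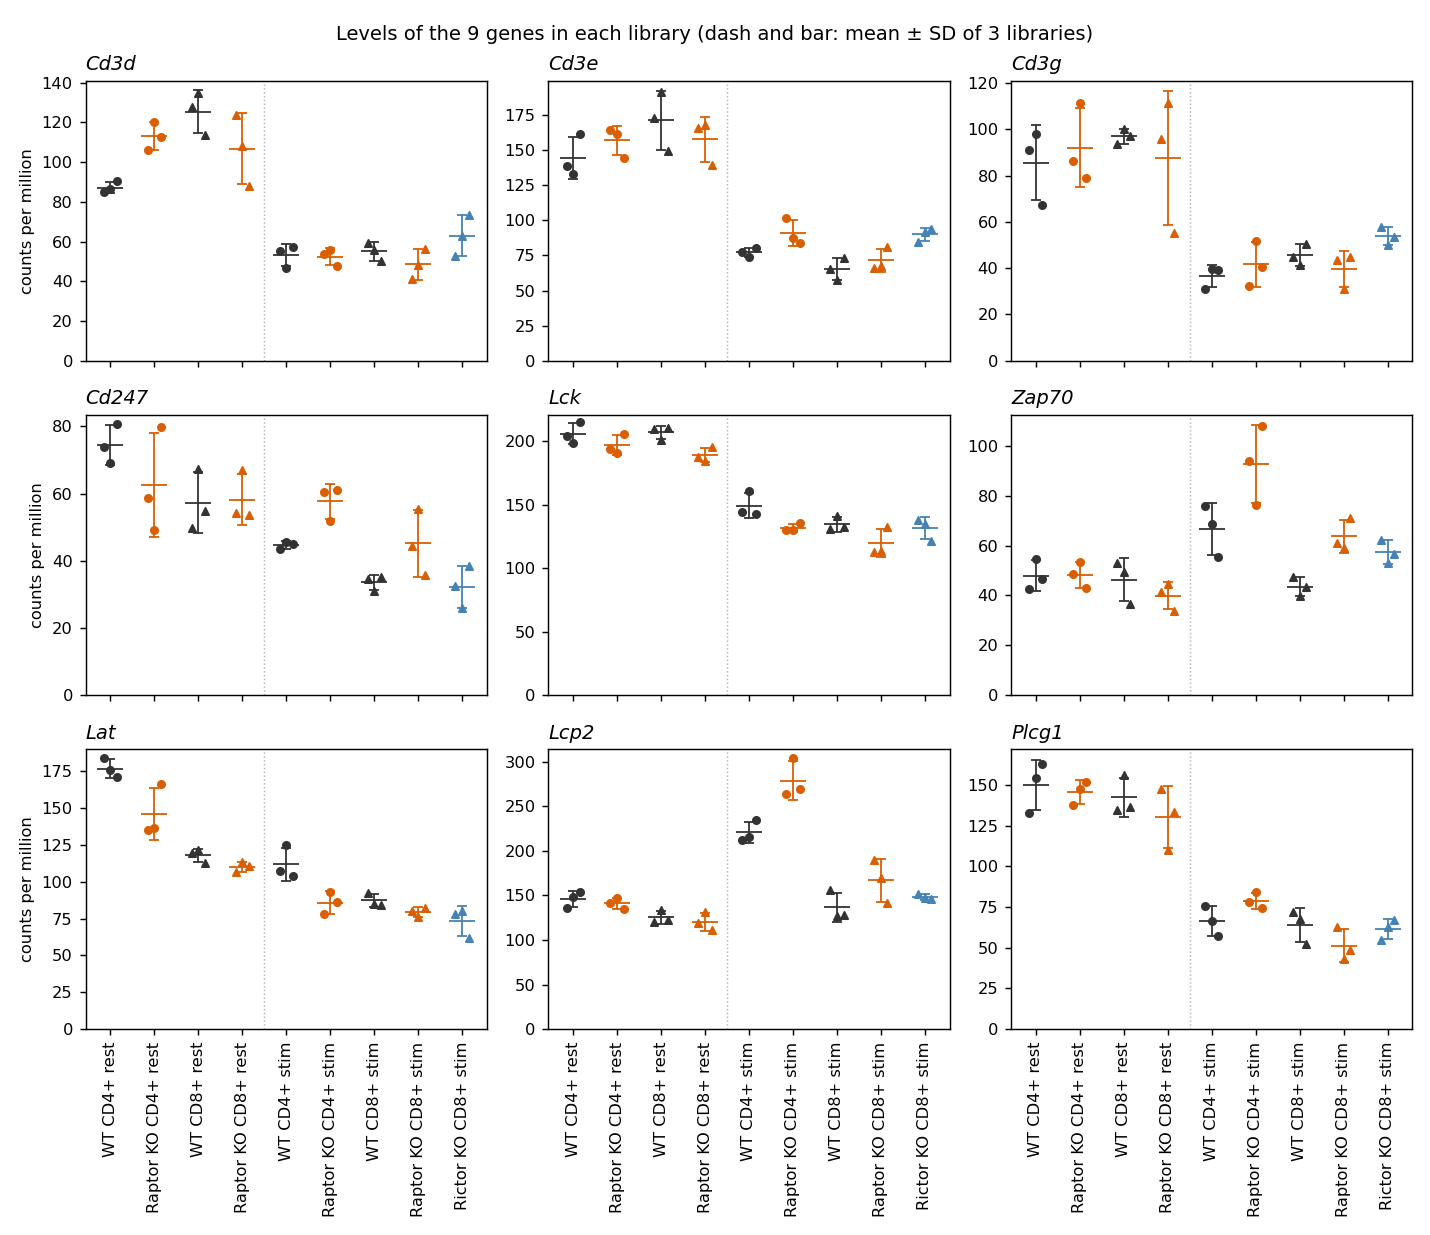
CPM of each gene in every library, by group, with resting groups left of the dotted line. Points are libraries (circles CD4+, triangles CD8+; black WT, orange Raptor KO, blue Rictor KO), and dashes with bars are the mean ± SD of 3. The group means of Cd3d, Cd3e, Cd3g, Lck and Plcg1 lie lower in every stimulated group than in every resting group, whereas those of Zap70 and Lcp2 lie highest in stimulated Raptor KO CD4+ cells. Single libraries of Cd3g overlap, with resting Raptor KO CD8+ library 3 at 55.3 CPM and stimulated Rictor KO CD8+ library 1 at 57.7 CPM.

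In stimulated cells the RNA of most of the receptor was lower, and that of ZAP-70 and SLP-76 higher in 3 of the 4 settings. In WT CD4+ cells 7 of the 9 genes fell and 2 rose, where 32.5% of all tested genes fell and 32.4% rose (64.9% in either direction). In WT CD8+ cells 7 fell and none rose, against 30.8% and 32% of all tested genes (62.8%). In Raptor KO cells 6 fell and 2 rose in each subset, against 24.1% lower and 27.9% higher of all genes in CD4+ cells (52%) and 26% and 29.5% in CD8+ cells (55.6%). The median log2 fold change of the 9 was -0.72 in WT CD4+, -0.76 in WT CD8+, -0.76 in Raptor KO CD4+ and -0.66 in Raptor KO CD8+ cells, where the median of all genes lay between -0.03 and 0.04. The groups did not overlap for 9 of 9 genes in WT CD4+ cells and for 7 of 9 in WT CD8+ cells, compared with 67.5% and 67.9% of all tested genes. In Raptor KO cells they did not overlap for 8 of 9 in each subset, compared with 57.3% in CD4+ and 58.2% in CD8+ cells. B cell markers, the erythroid and stromal list and the protein-coding share moved with culture as given above, and their part in these results was not tested.

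The CD3 chains fell in all 4 settings. Cd3e, whose chain pairs with both CD3δ and CD3γ, measured 138, 133 and 161 CPM in the 3 resting WT CD4+ libraries and 77.2, 74.0 and 80.1 CPM in the stimulated ones. In WT CD8+ cells it measured 173, 191 and 149 CPM at rest and 65.0, 57.3 and 73.0 CPM after stimulation. All stimulated libraries lay below all resting ones, and the log2 fold change was -0.90 ± 0.13 (SE, adjusted p = 1.94e-07) in CD4+ and -1.39 ± 0.14 (adjusted p = 9.82e-12) in CD8+ cells, to 53.4% and 38.2% of the resting level. In Raptor KO cells Cd3e fell by the same test to 58.0% (adjusted p = 4.54e-06) and 45.6% (adjusted p = 3.12e-09).

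Cd3d gave 84.9, 86.5 and 90.4 CPM in resting and 55.1, 46.8 and 57.2 CPM in stimulated WT CD4+ libraries. In WT CD8+ libraries it gave 128, 135 and 113 CPM at rest and 59.5, 55.7 and 50.1 CPM after stimulation. All resting libraries lay above all stimulated ones, and the stimulated levels of the subsets were near each other. The log2 fold change was -0.72 ± 0.15 (adjusted p = 4.28e-05) in CD4+ and -1.19 ± 0.14 (adjusted p = 2.31e-09) in CD8+ cells, but the difference between them was -0.47 ± 0.20 with an adjusted p of 0.317, which misses the threshold. In Raptor KO cells Cd3d fell to 46.2% in CD4+ and 45.9% in CD8+ cells. Cd3g, with 91.1, 98.1 and 67.3 CPM at rest and 31.1, 39.7 and 39.1 CPM after stimulation in WT CD4+ libraries, fell to 43.5% there and to 47.4%, 44.6% and 44.8% in WT CD8+, Raptor KO CD4+ and Raptor KO CD8+ cells. Its resting libraries were spread widely in 1 group: Raptor KO CD8+ cells gave 95.8, 111 and 55.3 CPM, the lowest on 62 counts.

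Cd247, the gene of the ζ chain, which carries more signalling motifs than any CD3 chain, fell in WT cells. WT CD4+ libraries gave 73.7, 69.1 and 80.6 CPM at rest and 43.5, 45.5 and 45.1 CPM after stimulation, and WT CD8+ libraries 49.7, 67.3 and 54.9 and 34.7, 31.0 and 35.1 CPM. The groups did not overlap in either subset, with log2 fold changes of -0.74 ± 0.17 (adjusted p = 1.70e-04) and -0.76 ± 0.17 (adjusted p = 2.60e-04). In Raptor KO CD4+ cells the libraries gave 58.7, 49.2 and 79.7 CPM at rest and 60.4, 51.7 and 60.9 CPM after stimulation and overlapped, with a log2 fold change of -0.10 ± 0.17 (95% interval -0.44 to 0.25, adjusted p = 0.659). In Raptor KO CD8+ cells they gave 54.3, 66.9 and 53.5 and 44.4, 55.4 and 35.7 CPM, with a log2 fold change of -0.38 ± 0.18 (adjusted p = 0.0640), which passed the threshold without stimulated library 2 (-0.55, adjusted p = 0.0165) and among protein-coding genes alone (-0.45, adjusted p = 0.0248; range over alternatives 0.0165 to 0.886). The difference of the effects between genotypes was 0.64 ± 0.24 in CD4+ (adjusted p = 0.0992) and 0.38 ± 0.25 in CD8+ cells (adjusted p = 0.496). In CD4+ cells it passed without resting Raptor KO library 3 (0.84, adjusted p = 0.0314; range 0.0314 to 0.895).

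Lck, the kinase that starts the cascade, fell in all 4 settings. It measured 204, 199 and 215 CPM in resting and 144, 160.4 and 143 CPM in stimulated WT CD4+ libraries, and 209, 201 and 210.4 and 130.5, 141 and 132 CPM in WT CD8+ libraries. Again no stimulated library reached a resting one, and the log2 fold changes were -0.47 ± 0.12 (adjusted p = 6.19e-04) and -0.62 ± 0.12 (adjusted p = 1.53e-05). In Raptor KO cells Lck fell to 67.1% in CD4+ and 63.4% in CD8+ cells. Lat, the membrane adaptor, went from 184, 176 and 171 to 107, 125 and 104 CPM in WT CD4+ and from 119, 122 and 113 to 92.6, 85.1 and 84.3 CPM in WT CD8+ libraries. Neither subset overlapped, and the log2 fold changes were -0.66 ± 0.13 (adjusted p = 1.76e-05) and -0.43 ± 0.13 (adjusted p = 0.00373), with -0.76 ± 0.13 and -0.47 ± 0.13 in Raptor KO CD4+ and CD8+ cells (adjusted p = 3.82e-06 and 0.00243). Without the filter on low counts the fall of Lck in WT CD4+ cells (adjusted p = 0.134; range 8.20e-05 to 0.750) and of Lat in WT CD8+ cells (0.18; range 5.71e-04 to 0.807) and Raptor KO CD8+ cells (0.0683; range 5.85e-04 to 0.753) missed the threshold.

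Plcg1, the phospholipase at the end of the series, also fell in all 4 settings. It went from 133, 154 and 163 to 75.9, 66.4 and 57.5 CPM in WT CD4+ libraries and from 135, 156 and 137 to 72.1, 67.4 and 52.6 CPM in WT CD8+ libraries. No library overlapped, and the level fell to 44.0% (log2 -1.18 ± 0.15, adjusted p = 4.06e-09) and 44.8% (log2 -1.16 ± 0.15, adjusted p = 8.40e-09). In Raptor KO cells it fell to 54.2% in CD4+ and 39.0% in CD8+ cells.

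Zap70 and Lcp2 moved the other way in 3 of the 4 settings. Lcp2, the SLP-76 adaptor, went from 136, 148 and 154 to 212, 215 and 234 CPM in WT CD4+ and from 142, 147 and 134 to 263, 304 and 269 CPM in Raptor KO CD4+ libraries. It rose 1.51-fold (log2 0.59 ± 0.13, adjusted p = 8.75e-05) and 1.97-fold (log2 0.98 ± 0.13, adjusted p = 2.08e-08), with no overlap of the libraries. In Raptor KO CD8+ cells it went from 119, 131 and 111 to 190.0, 169 and 142 CPM (log2 0.46 ± 0.13, adjusted p = 0.00232). WT CD8+ libraries overlapped, at 119.9, 134 and 123 CPM at rest and 156, 127 and 128 CPM after stimulation, with a log2 fold change of 0.13 ± 0.13 (95% interval -0.13 to 0.39, adjusted p = 0.399). With library totals that keep Rn45s it passed as higher there (0.90, adjusted p = 0.0387; range over alternatives 0.0387 to 1.00), where the median of all genes stood at 0.77.

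Zap70, the kinase that binds the phosphorylated receptor, went from 42.4, 54.9 and 46.7 to 75.9, 68.6 and 55.6 CPM in WT CD4+ libraries (log2 0.46 ± 0.16, adjusted p = 0.0114). In Raptor KO CD4+ libraries it went from 48.7, 53.5 and 43.0 to 94.0, 76.5 and 108 CPM, a 1.92-fold rise (log2 0.94 ± 0.16, adjusted p = 3.45e-06). The lowest stimulated library was above the highest resting one in both, narrowly so in WT cells. In Raptor KO CD8+ libraries it went from 41.5, 44.6 and 33.9 to 61.1, 59.1 and 71.4 CPM (log2 0.67 ± 0.17, adjusted p = 7.69e-04), again without overlap. WT CD8+ libraries gave 53.2, 49.3 and 36.6 CPM at rest and 47.3, 39.6 and 43.6 CPM after stimulation and overlapped (log2 -0.08 ± 0.17, 95% interval -0.41 to 0.26, adjusted p = 0.691). The call in WT CD4+ cells was lost without resting library 1 (adjusted p = 0.0552) or stimulated library 1 (0.0513), over a range of 0.00299 to 0.675. The difference of the stimulation effect between WT CD8+ and WT CD4+ cells missed the threshold for both genes, at -0.54 ± 0.23 (adjusted p = 0.311) for Zap70 and -0.47 ± 0.18 (adjusted p = 0.233) for Lcp2.

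**Figure D2:**
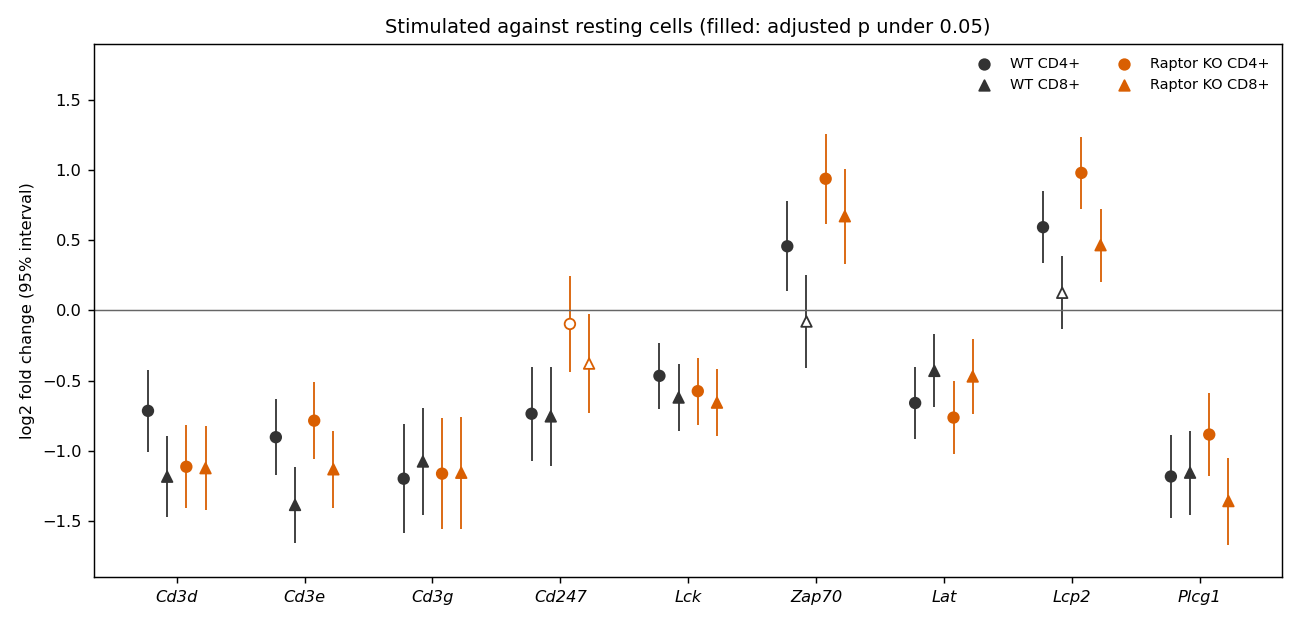
Log2 fold change of stimulated against resting cells for each gene, with 95% intervals; filled points have an adjusted p under 0.05. Cd3d, Cd3e, Cd3g, Lck, Lat and Plcg1 lie below 0 in the 4 settings, and Zap70 and Lcp2 above 0 except Zap70 in WT CD8+ cells; with totals that include Rn45s, Lck, Lat and Cd247 lie above 0 in WT CD8+ cells.

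These directions rest on scaling to the bulk of genes other than Rn45s. With library totals that keep Rn45s, the all-gene median itself shifted to 0.25 in WT CD4+, 0.77 in WT CD8+, -0.08 in Raptor KO CD4+ and 0.33 in Raptor KO CD8+ cells, and in WT CD8+ cells the log2 fold changes of Cd247, Lck and Lat became 0.02, 0.15 and 0.35, none past the threshold. Relative to that shift they were -0.75, -0.63 and -0.43. Under those totals 3, 1, 4 and 3 of the 9 genes passed in the 4 settings. The 1 in WT CD8+ cells was Lcp2, as higher, and all 7 falls there lost their call. Of all genes 3103 were called higher and 1887 lower in WT CD4+ cells, where the scaling used here gave 3397 and 3414, and 4527 and 1107 in WT CD8+ cells, where it gave 3363 and 3229. Ratios of counts within a library need no scaling. Lcp2 had 1.02 ± 0.0870 counts per Cd3e count (mean ± SD, n = 3) at rest and 2.86 ± 0.0979 after stimulation in WT CD4+ cells, and 0.738 ± 0.0719 and 2.12 ± 0.331 in WT CD8+ cells. Zap70 had 0.234 ± 0.0368 counts per Lck count at rest and 0.448 ± 0.0711 after stimulation in WT CD4+ cells, and 0.224 ± 0.0439 and 0.324 ± 0.0414 in WT CD8+ cells. In each case the stimulated libraries lay above the resting ones. Each of these pairs joins a gene called higher in WT CD4+ cells with a gene called lower there, so the separation follows from the choice of pairs. In WT CD8+ cells Cd3e and Lck were called lower, and Lcp2 and Zap70 were not called. No share over all pairs of genes was computed, so the ratios are descriptions. The highest Zap70 to Lck ratio was that of stimulated Raptor KO CD4+ cells, 0.703 ± 0.107. Cd3g per Cd3d count was 0.984 ± 0.210 at rest and 0.698 ± 0.142 after stimulation in WT CD4+ cells, and 0.777 ± 0.0673 and 0.836 ± 0.152 in WT CD8+ cells, with libraries that overlap in both subsets.

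Loss of Raptor was compared within each subset and culture. At rest none of the 9 genes passed the threshold by edgeR in either subset, where 0.0953% of all genes were called higher and 0.0477% lower in CD4+ cells (0.143% in either direction), and 0.505% and 0.619% in CD8+ cells (1.12%). At an unadjusted p under 0.05 there were 2 in CD4+ cells, Cd3d and Lat, where 7.78% of all genes were, and none in CD8+ cells, where 9.86% were, and DESeq2 called none in either. Cd3d gave 106, 120.3 and 113 CPM in resting Raptor KO CD4+ libraries, all above the WT ones, with a log2 fold change of 0.37 ± 0.14 (95% interval 0.09 to 0.66, adjusted p = 0.429). Lat gave 135, 136 and 167 CPM, all below WT, with -0.28 ± 0.13 (95% interval -0.53 to -0.02, adjusted p = 0.580). Resting libraries of the 2 genotypes did not overlap for 2 of the 9 genes in CD4+ and 1 in CD8+ cells, against 12.3% and 14.2% of all tested genes.

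After stimulation edgeR called Zap70 higher in Raptor KO than in WT cells of both subsets, and Lat lower in CD4+ cells. In CD4+ cells 1 of the 9 genes was called higher and 1 lower, against 8.82% and 8.56% of all genes (17.4% in either direction), and in CD8+ cells 1 was higher and none lower, against 6.3% and 5.42% (11.7%). Counted in either direction, the calls lie near the shares of all genes, so they do not set the 9 genes apart. Libraries did not overlap for 6 of the 9 genes in CD4+ and 3 in CD8+ cells, against 33.4% and 29.8% of all tested genes. Zap70 gave 94.0, 76.5 and 108 CPM in stimulated Raptor KO CD4+ and 75.9, 68.6 and 55.6 CPM in WT CD4+ libraries, and the groups did not overlap. The log2 fold change was 0.50 ± 0.15 (adjusted p = 0.0165, a 1.41-fold level). In CD8+ libraries it gave 61.1, 59.1 and 71.4 CPM in Raptor KO and 47.3, 39.6 and 43.6 CPM in WT, again without overlap, with 0.56 ± 0.16 (adjusted p = 0.0140, 1.47-fold). Lat gave 78.0, 93.1 and 86.4 CPM in stimulated Raptor KO CD4+ libraries, each below the WT libraries, with -0.38 ± 0.13 (adjusted p = 0.0341). In stimulated CD8+ cells Lat gave -0.14 ± 0.13 (95% interval -0.40 to 0.13), and the difference of the Raptor effect between the subsets was 0.25 ± 0.18 (adjusted p = 0.736).

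These 3 calls were near the threshold. That of Zap70 in CD4+ cells was lost without stimulated WT library 3 (0.156) or Raptor KO library 1 (0.0539) or 3 (0.136), in adjusted p, and ranged from 0.00771 to 1.00 over the alternatives. That of Zap70 in CD8+ cells was lost without WT library 2 (0.0606) or Raptor KO library 3 (0.121; range 0.00828 to 1.00), and that of Lat without WT library 2 (0.166) or Raptor KO library 1 (0.151) or 3 (0.0654; range 0.0157 to 1.00). In every such fit the direction was kept. With totals that keep Rn45s, where the all-gene median shifted to -0.46 in CD4+ and -0.49 in CD8+ cells, none of the 3 passed, and Zap70 was at 0.07 and 0.03. DESeq2 called Lat and not Zap70, at an adjusted p of 0.0521 in CD4+ and 0.0506 in CD8+ cells. Without the filter on low counts none of the 3 passed. The summed level of the 9 myeloid markers was 41.6 to 50.5 CPM in stimulated Raptor KO CD4+ and 20.8 to 28.1 CPM in WT CD4+ libraries, and 62.2 to 68.6 and 44.2 to 58.0 CPM in CD8+ libraries, with Itgam at 0 in all 4 groups, and its part in these results was not tested.

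Lcp2 lay just outside the call. In stimulated CD4+ cells its 3 Raptor KO libraries were all above the WT ones, with a log2 fold change of 0.34 ± 0.13 (95% interval 0.08 to 0.59, adjusted p = 0.0569), and it passed among protein-coding genes alone (0.0316) and with the library code as a block (0.0409; range 0.0316 to 1.00). In stimulated CD8+ cells the value was 0.28 ± 0.13 (adjusted p = 0.146). Cd247 was at 0.37 ± 0.17 in CD4+ and 0.41 ± 0.17 in CD8+ cells (adjusted p = 0.125 and 0.125), without overlap of the libraries in either. Such a lack of overlap was common, at 33.4% and 29.8% of all tested genes in these comparisons. The CD3 chains, Lck and Plcg1 gave log2 fold changes between -0.33 and 0.25 in the stimulated subsets, none past the threshold.

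Whether the stimulation effect itself differed between Raptor KO and WT was tested as an interaction, and none of the 9 genes passed in either subset, where 3.57% and 2.25% of all genes were called higher and lower in CD4+ (5.82% in either direction) and 1.7% and 1.19% in CD8+ cells (2.89%). At an unadjusted p under 0.05 there were 3 genes in CD4+ cells (Cd247, Zap70 and Lcp2), against 21.1% of all genes, and 1 in CD8+ cells (Zap70), against 15.7%. Zap70 was at 0.75 ± 0.24 in CD8+ cells (95% interval 0.27 to 1.23, adjusted p = 0.0734), and passed without resting WT library 3 (0.90, adjusted p = 0.0316; range 0.0316 to 0.913). In CD4+ cells it was at 0.48 ± 0.22 (adjusted p = 0.207) and Lcp2 at 0.39 ± 0.18 (adjusted p = 0.203). A rise that passed in Raptor KO CD8+ cells and did not in WT CD8+ cells is therefore not shown to differ between the genotypes.

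**Figure D3:**
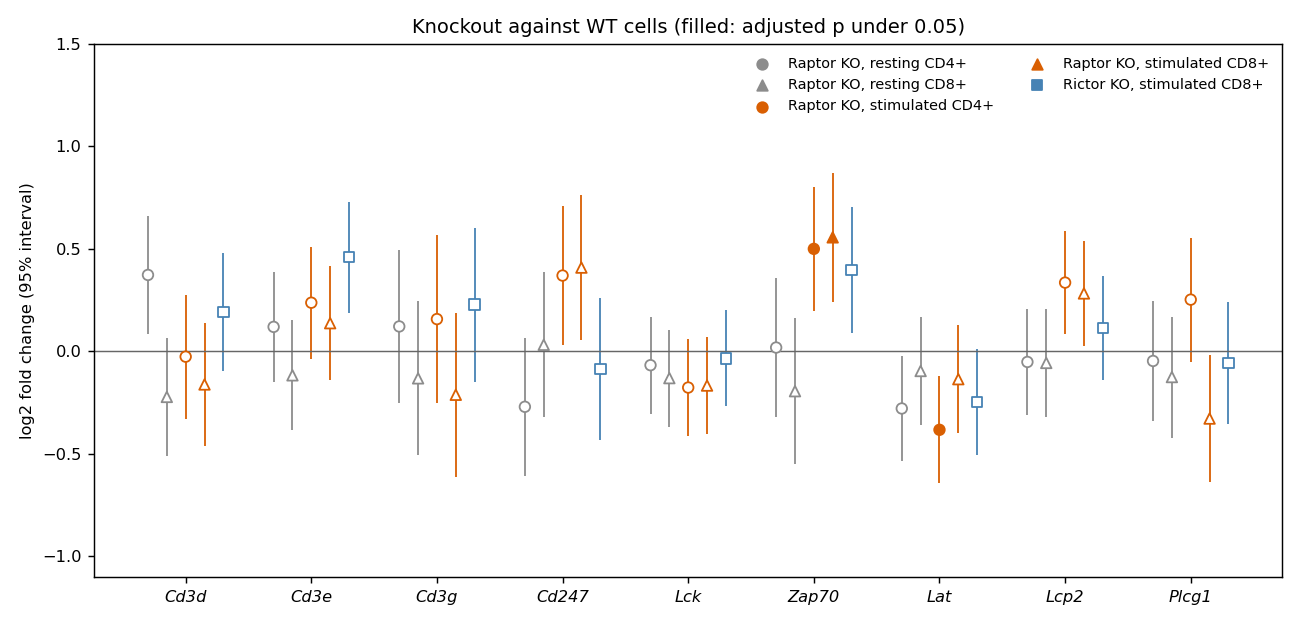
Log2 fold change of Raptor KO or Rictor KO against WT cells for each gene in 5 settings, with 95% intervals; filled points have an adjusted p under 0.05. Zap70 is filled in stimulated CD4+ and CD8+ Raptor KO cells at 0.50 and 0.56, Lat in stimulated CD4+ cells at -0.38, and no other point is.

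Loss of Rictor in stimulated CD8+ cells changed none of the 9 genes past the threshold by edgeR, where 0.105% of all genes were higher and 0.0572% lower (0.162% in either direction). At an unadjusted p under 0.05 there were 2, Cd3e and Zap70, against 6.03% of all genes, and DESeq2 called none. Cd3e gave 84.7, 91.3 and 93.9 CPM in Rictor KO and 65.0, 57.3 and 73.0 CPM in WT libraries, with no overlap, a log2 fold change of 0.46 ± 0.13 (95% interval 0.19 to 0.73) and an adjusted p of 0.219. Zap70 gave 62.5, 53.1 and 56.8 CPM in Rictor KO libraries, also above all WT ones, with 0.40 ± 0.15 (95% interval 0.09 to 0.70, adjusted p = 0.522). Lat gave 78.3, 79.9 and 61.6 CPM, below all WT libraries, with -0.25 ± 0.13 (adjusted p = 0.837). Libraries did not overlap for 3 of the 9 genes, against 13.5% of all tested genes. The 3 Rictor KO libraries carry 1 library code, StP219, which among stimulated WT CD8+ libraries only the third has. Against that library alone Cd3e was at 0.29 and Zap70 at 0.39, both with an adjusted p of 1. The summed level of the 7 NK and γδ T cell markers was 21.3 to 38.0 CPM in Rictor KO and 5.09 to 8.03 CPM in WT libraries, with Ncr1 and Klra8 at 0 in both groups, and its part was not tested.

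The subsets differed in a few members. In resting WT cells 1 gene was higher and 1 lower in CD8+ than in CD4+ cells, against 1.59% and 1.73% of all genes (3.33% in either direction). Lat was lower, at 119, 122 and 113 CPM in CD8+ and 184, 176 and 171 CPM in CD4+ libraries, well apart, with a log2 fold change of -0.58 ± 0.13 (adjusted p = 0.00315). Cd3d was higher, at 128, 135 and 113 CPM against 84.9, 86.5 and 90.4 CPM, without overlap, with 0.52 ± 0.14 (adjusted p = 0.0282). Libraries did not overlap for 4 of the 9 genes, against 18.5% of all tested genes. The call on Cd3d was lost in 5 of the 6 fits that left out 1 library, those without CD4+ library 1 (0.0968), 2 (0.0906) or 3 (0.053) and CD8+ library 1 (0.0948) or 2 (0.132), in adjusted p, and without the filter on low counts (0.0854; range 0.0135 to 1.00). The call on Lat was lost without that filter (0.0569; range 0.00149 to 1.00). In resting Raptor KO cells none passed, against 1.65% and 1.51% of all genes (3.15%), and by DESeq2 none. At an unadjusted p under 0.05 there was 1, against 12.7% of all genes: Lat, at -0.40 ± 0.13 (adjusted p = 0.0884), with the CD8+ libraries again all below the CD4+ ones. Libraries did not overlap for 2 of the 9 genes in these Raptor KO cells, against 16.6% of all tested genes.

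After stimulation Zap70 and Lcp2, the genes that had risen in CD4+ cells, were lower in CD8+ cells. In WT cells these 2 of 9 were lower and none higher, against 2.11% and 3.08% of all genes (5.18% in either direction). Lcp2 measured 156, 127 and 128 CPM in CD8+ and 212, 215 and 234 CPM in CD4+ libraries, far apart, with a log2 fold change of -0.69 ± 0.13 (adjusted p = 2.09e-04). Zap70 measured 47.3, 39.6 and 43.6 and 75.9, 68.6 and 55.6 CPM, without overlap, with -0.60 ± 0.15 (adjusted p = 0.0115). Libraries did not overlap for 7 of the 9 genes in WT cells, against 20.5% of all tested genes. In Raptor KO cells 3 were lower and none higher, against 2.63% and 2.73% of all genes (5.36%): Lcp2 at -0.74 ± 0.13 (adjusted p = 8.17e-05), Zap70 at -0.54 ± 0.15 (adjusted p = 0.0242) and Plcg1 at -0.63 ± 0.15 (adjusted p = 0.00700). Plcg1 gave 62.8, 42.9 and 48.6 CPM in CD8+ and 78.0, 84.1 and 74.6 CPM in CD4+ libraries of that genotype, and its difference in WT cells was -0.05 ± 0.15. Libraries did not overlap for 4 of the 9 genes in Raptor KO cells, against 21.4% of all tested genes. Among the 8 B cell markers the summed level was 43.9 to 59.1 CPM in stimulated WT CD8+ and 23.2 to 33.3 CPM in stimulated WT CD4+ libraries. That of the 9 myeloid markers was 44.2 to 58.0 and 20.8 to 28.1 CPM in the same WT libraries, and 62.2 to 68.6 and 41.6 to 50.5 CPM in stimulated Raptor KO CD8+ and CD4+ libraries. The part of these cells in the results was not tested.

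These differences held to unequal degrees when libraries were left out. The Lcp2 calls stayed in every such fit. The Zap70 call in WT cells was lost without CD4+ library 1 (0.0863) or 2 (0.054) or CD8+ library 2 (0.0697; range 0.00473 to 1.00), in adjusted p. The Zap70 call in Raptor KO cells was lost without CD4+ library 1 (0.0768) or 3 (0.188) or CD8+ library 1 (0.0863) or 2 (0.139), and without the filter on low counts (0.0672; range 0.0111 to 1.00). The Plcg1 call was lost without CD8+ library 2 (0.0876; range 0.00230 to 1.00). No member passed for the difference of the stimulation effect between WT CD8+ and CD4+ cells (1% of all genes higher, 0.438% lower, 1.44% in either direction) or for the difference of the Raptor effect between the stimulated subsets (0.172%, 0.162% and 0.334%). At an unadjusted p under 0.05 there were 4 in the first (Cd3d, Cd3e, Zap70 and Lcp2), against 11.8% of all genes, and 1 in the second, against 9.35%: Plcg1, at -0.58 ± 0.21 (adjusted p = 0.327).

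Across the 9 group means of log2 CPM the genes fell into those that resemble the CD3 chains and the pair Zap70 and Lcp2. Pearson correlations below are descriptions over 9 groups that share library scaling, and Cd3d, Cd3g and Cd3e share a gene cluster. The member most like Cd3d was Cd3g and the reverse (r = 0.98), and that most like Cd3e was Cd3d (0.96). Lck and Plcg1 were most like each other (0.97), Lat was most like Lck (0.88) and Cd247 most like Plcg1 (0.81). Zap70 and Lcp2 were most like each other (0.95), with r of -0.70 and -0.71 to Cd3g. Among 9442 other tested protein-coding genes the 5 whose group means were most like the mean pattern of the 9 were Galnt10 (0.99), Zhx3 (0.99), Fam102a (0.99), Ets1 (0.99) and Slc39a13 (0.99). Cd79a, a B cell gene, ranked 10 (0.98) and was picked out after its value was seen. The mean of the 9 takes in Zap70 and Lcp2, with r of -0.44 to -0.71 to the CD3δ, CD3ε and CD3γ genes, Lck and Plcg1. It therefore mostly follows the other members, which were lower in stimulated cells. The share of all genes at such high r was not counted. Zhx3 overlaps Plcg1 on the other strand, and whether the 2 share reads is not known, since the strand setting of the counting is not given in the sources used here.

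**Figure D4:**
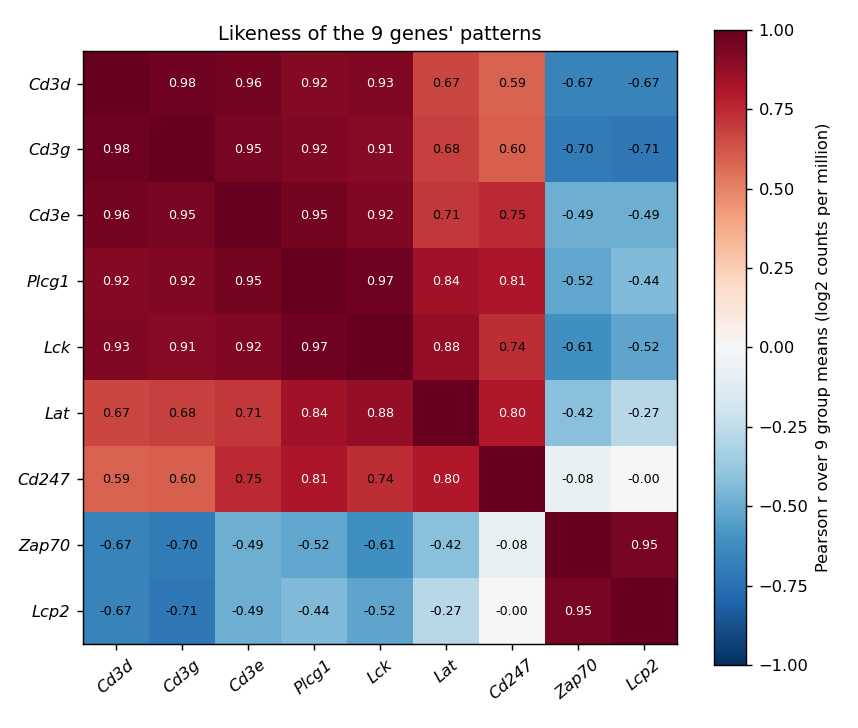
Pearson correlation of each pair of the 9 genes over the 9 group means of log2 CPM, from -1 (blue) to 1 (red). Cd3d, Cd3g, Cd3e, Plcg1 and Lck form a block at 0.91 to 0.98, Zap70 and Lcp2 a pair at 0.95, and Cd247 is near 0 against that pair.

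In the wider pathway genes were called in both directions under stimulation, as were all tested genes (32.5% lower and 32.4% higher in WT CD4+ cells, 30.8% and 32% in WT CD8+ cells). Of 6 receptor chains and coreceptors, 3 fell and none rose in WT CD4+ cells, and 4 fell and 1, the α chain constant gene Trac, rose in WT CD8+ cells. Trbc2 and Trbc1, the β chain constant genes, went from 166 ± 8.53 to 76.0 ± 13.0 and 93.9 ± 4.87 to 44.7 ± 4.15 CPM in WT CD4+ cells (mean ± SD, n = 3; log2 -1.12 ± 0.16 and -1.07 ± 0.16). As near copies, they may share reads. In WT CD8+ cells the coreceptor genes Cd8b1 and Cd8a went from 317 ± 16.5 to 79.5 ± 6.00 and 334 ± 61.1 to 119 ± 9.23 CPM. Of 21 other proximal kinases and adaptors, 14 fell and 2 rose in WT CD4+ cells, and 10 and 2 in WT CD8+ cells, with median log2 fold changes of -0.68 and -0.34. Txk, a Tec family kinase, went from 113 ± 47.2 to 2.31 ± 0.569 CPM in WT CD4+ cells (log2 -5.67 ± 0.48, adjusted p = 2.93e-09), and Grap2, the adaptor that links SLP-76 to LAT, from 259 ± 22.9 to 32.9 ± 2.92 CPM (log2 -2.98 ± 0.15, adjusted p = 3.37e-20). Wipf1, which binds the actin regulator WASP, rose in both WT subsets, from 107 ± 7.51 to 166 ± 10.2 CPM in CD4+ cells, and the adaptor Sh2d2a rose in WT CD8+ cells from 53.0 ± 5.75 to 146 ± 24.6 CPM.

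Of 19 negative regulators, 8 fell and 6 rose in WT CD4+ cells and 7 and 6 in WT CD8+ cells, with median log2 fold changes of -0.19 and 0.03. For this list and those below, the shares of all tested genes were 32.5% lower and 32.4% higher in WT CD4+ cells. In WT CD8+ cells they were 30.8% and 32%. Dgka, the kinase that removes diacylglycerol, went from 542 ± 41.0 to 43.3 ± 5.54 CPM in WT CD4+ and 395 ± 38.9 to 36.2 ± 2.72 CPM in WT CD8+ cells. Ptpn6, the phosphatase SHP-1, went from 31.8 ± 6.31 to 99.9 ± 14.0 and 32.3 ± 5.85 to 87.7 ± 7.37 CPM, and Cd6, a receptor that tunes TCR signals, from 56.5 ± 3.15 to 207 ± 8.20 and 58.1 ± 3.10 to 139 ± 15.5 CPM. In the calcium and NFAT branch, 7 of 16 tested genes fell and 4 rose in WT CD4+ cells and 8 and 3 in WT CD8+ cells (medians -0.02 and -0.30). The calcium channel gene Orai2 went from 96.1 ± 15.1 to 7.87 ± 1.60 CPM and the calmodulin gene Calm3 from 44.5 ± 6.33 to 105 ± 14.9 CPM in WT CD4+ cells. In the PKCθ and NF-κB branch 4 of 14 fell and 6 rose in WT CD4+ cells and 5 and 6 in WT CD8+ cells (medians 0.29 and 0.04). In WT CD4+ cells Prkcq, which encodes PKCθ itself, went from 229 ± 15.4 to 50.5 ± 5.26 CPM, whereas the transcription factor genes Nfkb2 and Nfkb1 went from 18.0 ± 2.68 to 112 ± 15.8 and 78.2 ± 14.4 to 349.9 ± 40.8 CPM. In the Ras and MAP kinase branch 4 of 16 fell and 4 rose in WT CD4+ cells, and 5 and 8 in WT CD8+ cells (medians 0.24 and 0.39). In WT CD4+ cells Rasgrp1, the exchange factor that diacylglycerol recruits, went from 249.8 ± 70.2 to 64.0 ± 6.63 CPM, and the ERK phosphatase gene Dusp5 from 9.62 ± 0.854 to 98.1 ± 16.8 CPM. Each of these genes passed the threshold in the cells given. With totals that keep Rn45s none of the 6 receptor chains and coreceptors passed in WT CD4+ cells. In WT CD8+ cells, where those totals shift the median of all genes by 0.77, 6 of the calcium branch were then called higher and 3 lower, against 3 and 8 above, and the splits were 7 and 2 for the negative regulators, 7 and 2 for the NF-κB branch and 9 and 1 for the Ras branch.

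Raptor loss at rest left most of these lists without a call. The exceptions were Trac and Ptpn6, each higher in both subsets, and Cd5, an inhibitory receptor, lower in CD8+ cells. Trac went from 106 ± 4.35 to 192 ± 43.7 CPM from WT to Raptor KO in CD4+ cells (log2 0.86 ± 0.14, adjusted p = 9.08e-04) and from 84.3 ± 10.5 to 147 ± 11.6 CPM in CD8+ cells (0.80 ± 0.15, adjusted p = 0.00103). Ptpn6 went from 31.8 ± 6.31 to 73.3 ± 19.8 and 32.3 ± 5.85 to 70.4 ± 3.87 CPM, and Cd5 from 46.9 ± 7.88 to 25.9 ± 3.20 CPM. The call on Cd5 was lost without CD8+ WT library 1 (adjusted p = 0.109) or Raptor KO library 1 (0.0628), and under totals that keep Rn45s none of these resting calls passed. The summed level of the 7 NK and γδ T cell markers, led by Trdc, was 30.4 to 54.3 CPM in resting Raptor KO CD8+ and 11.4 to 14.0 CPM in resting WT CD8+ libraries. In resting CD4+ libraries it was 21.9 to 40.05 CPM in Raptor KO and 13.2 to 26.2 CPM in WT, which overlap. Klre1 and Klra8 were at 0 in both CD8+ groups, and Ncr1 and Klra8 in both CD4+ groups. The part of these cells in the resting results was not tested. Among stimulated cells, where 8.82% of all genes were higher and 8.56% lower in Raptor KO CD4+ and 6.3% and 5.42% in CD8+ cells, 7 of 21 proximal kinases and adaptors were higher and 1 lower in Raptor KO CD4+ cells, and 2 and 2 in Raptor KO CD8+ cells. Themis, which tunes TCR signals, was the gene that was lower in CD4+ cells, from 39.2 ± 12.9 to 17.2 ± 7.17 CPM, and it was lower in CD8+ cells too, from 102 ± 15.4 to 43.7 ± 2.25 CPM. The adaptor Nck2 was higher in both, from 6.57 ± 1.81 to 14.2 ± 0.802 and 5.65 ± 0.457 to 12.3 ± 1.20 CPM. Of 19 negative regulators, 5 were higher and 2 lower in CD4+ cells, and 1 and 1 in CD8+ cells, with the ubiquitin ligase gene Cblb going from 195 ± 23.9 to 363 ± 27.6 and 249.6 ± 39.8 to 357 ± 33.3 CPM. In CD8+ cells the call on Cblb was lost without WT library 3 (0.119) or Raptor KO library 2 (0.0615) and without the filter on low counts (0.136), in adjusted p. Of 14 genes of the PKCθ and NF-κB branch, 4 were higher and 1 lower in each subset, led by Rel in CD4+ cells, from 128 ± 15.0 to 227 ± 18.3 CPM, and by Malt1 in CD8+ cells, from 83.6 ± 7.28 to 191 ± 33.9 CPM. Of 16 genes of the Ras and MAP kinase branch, 4 were higher in CD4+ and 3 in CD8+ cells and none lower. The balance rests on the scaling: with totals that keep Rn45s, which called 67 genes higher and 617 lower over all genes in CD4+ cells and 55 and 404 in CD8+ cells, none of the Ras or NF-κB genes passed as higher. Of the 25 list genes called with at least 10 CPM in CD4+ cells only Cd5, Cd6, Themis and Txk then passed, and of the 15 in CD8+ cells only Chuk and Themis. In Rictor KO cells 1 gene of these lists passed, the costimulatory receptor gene Cd28, from 70.4 ± 2.56 to 130.2 ± 15.7 CPM (log2 0.88 ± 0.19, adjusted p = 0.0449). That call was lost with any 1 of the 6 libraries left out (adjusted p 0.0882 to 0.323), against the WT library of code StP219 alone (1.00), with the library code as a block (0.169), with the fold minimum and with totals that keep Rn45s (both 1.00), over a range of 0.000156 to 1.00.

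**Figure D5:**
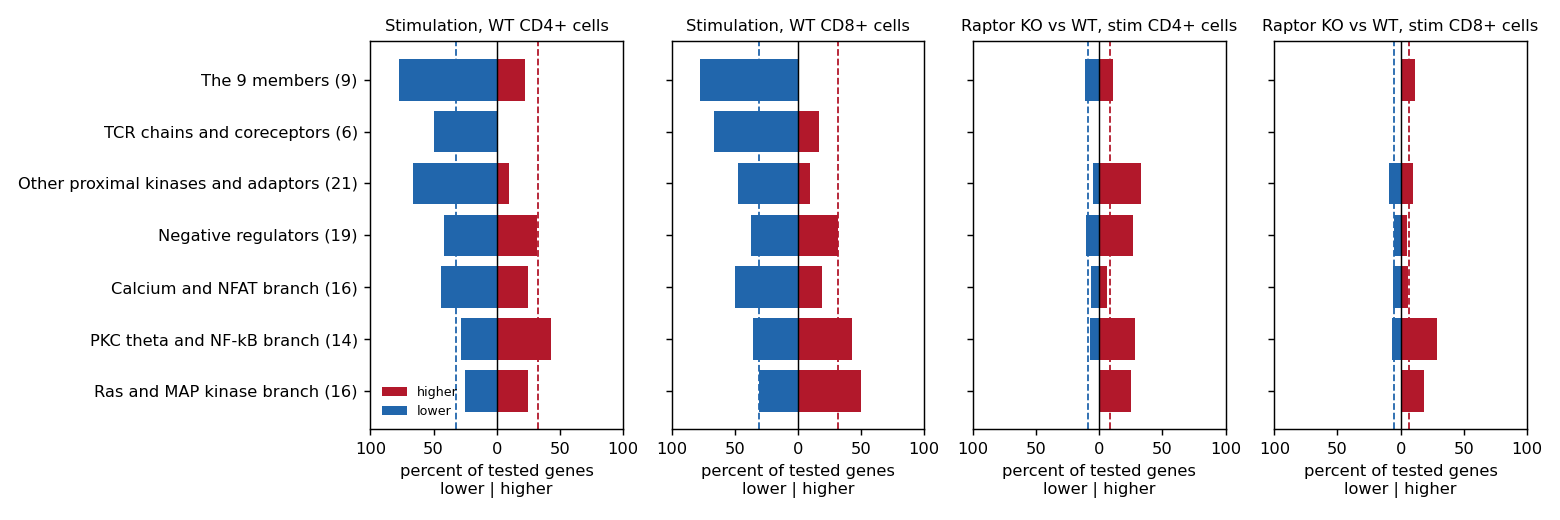
Percent of the tested genes of each list that were called higher (red, to the right) or lower (blue, to the left) in 4 comparisons; numbers in brackets are tested genes, and dashed lines are the percents of all 10493 tested genes. The 9 members are lower by 7 of 9 under stimulation in both WT subsets, and 1 or 2 of 9 are called in Raptor KO against WT.

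B cell and myeloid counterparts of the members, Fcer1g, Syk, Lyn, Blk, Btk, Blnk, Lat2 and Plcg2, were nearly absent. Only Plcg2, the close relative of Plcg1, passed the filter on low counts, and no other of them had a group mean above 2.59 CPM. Plcg2 rose with stimulation in all 4 settings, against the direction of Plcg1, from 3.27 ± 1.60 to 9.91 ± 1.01 CPM in WT CD8+ cells (log2 1.57 ± 0.47, adjusted p = 0.00389) and from 3.22 ± 0.914 to 12.5 ± 5.06 CPM in Raptor KO CD8+ cells (log2 1.84 ± 0.48, adjusted p = 0.00112). These resting levels rest on few counts, since 3 counts equal 1.83 to 2.46 CPM in WT and 1.83 to 2.67 CPM in Raptor KO CD8+ libraries. In CD4+ cells the log2 fold changes were 1.68 in WT and 1.94 in Raptor KO. Resting CD4+ estimates lay lower still, with log2 CD8+ against CD4+ of 0.99 in WT and 2.25 in Raptor KO, neither called. The size of the rise is therefore uncertain.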

How the data were processed

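The authors deposited 1 table of raw read counts per gene for 27 libraries. Per the labels' protocols, total RNA was ligated at its 3' end, and neither ribosomal depletion nor poly(A) selection is named. Per the submitters' processing notes, STAR 2.6.0a and build GRCm38 were used. For the counting program, the gene annotation and the strand setting, nothing is given in the sources used here. Of 26802 genes, 26765 matched GENCODE names for that build. Rn45s, a ribosomal precursor with 81.1% to 88.4% of counts, was left out before scaling, since it would otherwise set the library size. Genes were filtered with filterByExpr (minimum count 10, minimum total 15), scaled by TMM and fitted with edgeR 4.0.16 (R 4.3.3) as 1 mean per group over all 27 libraries, with robust quasi-likelihood tests and Benjamini-Hochberg adjustment over 10493 genes. An adjusted p under 0.05 counted as called. Comparisons numbered 17, of which 4 were interactions. CPM are counts relative to the TMM-scaled library without Rn45s, and group errors are SDs over 3 libraries. Log2 levels used a prior count of 2, and intervals are 95%. The common biological coefficient of variation was 0.187, and the filter's median gene had 29 counts per library, so members, at 38 to 851 counts, are among the better measured genes.

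The alternatives were RLE factors, totals including Rn45s, protein-coding genes only, no filter, DESeq2 1.42.0, a minimum fold change of 1.5, the library code as a block, each library left out in turn, and library code StP219 alone for Rictor KO. The members and gene lists were chosen with earlier results of these data known. From lists beside the members, at most the 2 higher and 2 lower genes with the largest log2 fold change, among those called with at least 10 CPM in a compared group, were named. The B cell and myeloid counterparts were exempt from this limit. Some genes of these lists, included in the counts over a list, are not reported here by name. Replicate numbers follow library codes in the WT and Raptor KO groups (the 3 Rictor KO libraries carry 1 code) and do not name an animal, litter or day. Deviations from the group means of libraries with the same number had correlations above 0.1 in every pair only for CD8+ against CD4+ resting Raptor KO cells (0.388, 0.290 and 0.514), where the block left the count of called members at 0. They were positive in every pair also for stimulation in WT CD4+ cells (0.25, 0.0503 and 0.303) and Raptor KO in stimulated CD4+ cells (0.117, 0.0402 and 0.437). The same held for CD8+ against CD4+ cells in resting WT (0.174, 0.0936 and 0.31) and stimulated WT cells (0.0881, 0.115 and 0.472). In each other between-group comparison at least 1 pair was negative. What same-number libraries share is not given, and the main fits take no account of it. No 2 libraries of a group were copies, as chi-square values divided by their degrees of freedom ran from 2.68 to 49.3. The fits were tested on simulated counts.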

Additional observations from a re-analysis of the deposited data

Results flagged for a closer look

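None of the 9 genes passed a test of a difference between effects, but genes of the lists beside them did, by edgeR's interaction test (log2 difference, adjusted p under 0.05). The stimulation effect in Raptor KO minus that in WT CD4+ cells was 2.41 for Txk, 1.39 for Itpr2, 1.29 for Rasa3, 1.19 for Cblb, 0.99 for Orai1, 0.98 for Rasgrp1, 0.94 for Ikbkb and 0.79 for Dgka. It was -1.05 for Themis, -0.90 for Ptpn6 and -0.74 for Cd6. In CD8+ cells the same difference was 1.29 for Grap, 1.21 for Rasa1, 1.14 for Malt1, 1.08 for Nfkbia and 0.91 for Cblb. It was -1.07 for Ptpn6, -0.94 for Themis, -0.87 for Itpr3 and -0.82 for Trac. Ptpn6 in both subsets and Trac in CD8+ cells were called higher in Raptor KO cells at rest. Neither was called between Raptor KO and WT after stimulation, so their differences hold the resting difference between the genotypes. The stimulation effect in CD8+ minus that in CD4+ WT cells was 1.21 for Sh2d2a, 0.86 for Grap2 and -0.97 for Grap. The Raptor effect in stimulated CD8+ minus that in stimulated CD4+ cells was 1.20 for Malt1, 0.86 for Cd6 and -1.42 for Itpr2. With totals that include Rn45s none of these 26 differences passed the threshold. With a minimum fold change of 1.5 only 1 did, that of Itpr2 for stimulation by genotype in CD4+ cells. The largest value, that of Txk, was lost in 14 of 19 alternatives, and the level of Txk in stimulated WT CD4+ cells, given above, was low. With any 1 library left out 12 of the 26 passed in every fit: Cblb, Dgka, Ikbkb and Itpr2 in CD4+ and Cblb, Grap, Malt1, Ptpn6 and Rasa1 in CD8+ cells for stimulation by genotype, Sh2d2a between the WT subsets, and Itpr2 and Malt1 for Raptor by subset. No library was tested for standing apart within its group, since each group had 3.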

How the results depend on the processing

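RLE factors and protein-coding genes alone left each count of called members within 1.5 times its value. Scaled to totals including Rn45s, 3, 1, 4 and 3 members were called for stimulation in WT CD4+, WT CD8+, Raptor KO CD4+ and Raptor KO CD8+ cells, and 0 for Raptor KO in stimulated CD4+ and CD8+ cells and for CD8+ against CD4+ in resting WT, stimulated WT and stimulated Raptor KO cells. The reversed values under these totals were those of Cd247 (0.0205), Lck (0.15) and Lat (0.35) for stimulation in WT CD8+ cells, where the median of all genes also shifted. That median moved to -0.43 and -0.36 for CD8+ against CD4+ in resting WT and Raptor KO cells, where Cd3d in WT cells was at 0.09. With a minimum fold change of 1.5 the stimulation counts were 3, 4, 5 and 4, and 0 in the other 5 comparisons just named, a stricter test by construction. Without the filter the counts were 0 for Raptor KO in stimulated CD4+ and CD8+ cells and for CD8+ against CD4+ in resting WT cells, with more genes tested. DESeq2 gave 1 and 0 for Raptor KO in stimulated CD4+ and CD8+ cells, and the cause was not tested.

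Leaving out 1 library gave 0 to 2 and 0 to 1 called members for Raptor KO in stimulated CD4+ and CD8+ cells, 1 to 2 for CD8+ against CD4+ in resting and in stimulated WT cells, 1 to 3 in stimulated Raptor KO cells, and 0 to 1 for the interaction of Raptor KO with stimulation in each subset. Among 1134 tests of a member with 1 library left out, 23 lost their call, 3 gained one and none reversed. With the library code as a replicate block the counts of called members stayed at 9, 7, 8 and 8 for stimulation and within 1.5 times elsewhere, and Lcp2 in stimulated CD4+ Raptor KO cells gained a call (0.33, adjusted p = 0.0409).

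Counts over all genes moved by over 1.5 times as follows. The block took Raptor KO from 15 to 34 in resting CD4+ and from 118 to 197 in resting CD8+ cells, the interaction of subset with stimulation from 151 to 234 and that of subset with Raptor KO from 35 to 75. Without the filter Raptor KO in resting CD4+ cells gave 29, Rictor KO 61 instead of 17, and the last interaction 75, or 53 with protein-coding genes alone. Totals with Rn45s gave 3261 instead of 5453 for stimulation in Raptor KO CD4+ cells, 684 instead of 1823 (67 higher, 617 lower) and 459 instead of 1230 (55 and 404) for Raptor KO in stimulated CD4+ and CD8+ cells, 23 in resting CD8+ cells and 5 for Rictor KO. They gave 186, 181, 136 and 175 instead of 349, 544, 331 and 562 for CD8+ against CD4+ in resting WT, stimulated WT, resting Raptor KO and stimulated Raptor KO cells, and 24, 38, 49 and 2 instead of 611, 303, 151 and 35 for the 4 interactions. The fold minimum gave 3291 and 3806 for stimulation in Raptor KO CD4+ and CD8+ cells, 5, 19, 242 and 237 for Raptor KO at rest and stimulated, 0 for Rictor KO, 113, 171, 91 and 173 between the subsets and 80, 65, 39 and 3 for the interactions. Leaving out 1 library gave 58 to 97 for Raptor KO in resting CD8+ cells, 1138 to 1714 and 753 to 1100 in stimulated cells, 1 to 27 for Rictor KO (0 with StP219 alone), 199 to 264 between subsets in resting Raptor KO cells, and 375 to 664 and 17 to 45 for the first and last interaction.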
